A study of Homo sapiens with 3 samples.

Results

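RNA from 10 genes of the cellular oxygen-sensing pathway was examined in RCC4 cells, a line from a human clear cell renal carcinoma that has no functional VHL protein. The genes were taken by name from the 60605 genes of the deposited table; the naming rule uses no measured value, though it was written with earlier results of these data known. They are EPAS1, HIF1A and ARNT, which encode subunits of hypoxia-inducible factor (HIF); VHL; the HIF hydroxylases EGLN1, EGLN2, EGLN3 and HIF1AN; and the carbonic anhydrases CA9 and CA12. All cells carried a lentiviral Cas9 vector and received IFN-gamma at 1000 U/mL plus TNF at 25 ng/mL for 24 h. The 3 libraries of poly(A) RNA are labelled as biological replicates, each grown in 3 flasks, and form a single group. Untreated cells, hypoxic cells and cells with VHL restored were not analysed here, so the values are levels in cytokine-treated cells and not responses.

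HIF is a transcription factor made of an oxygen-regulated alpha subunit and a stable beta subunit. When oxygen is present, the EGLN enzymes hydroxylate prolines of the alpha subunit, and the VHL ubiquitin ligase binds the hydroxylated protein and marks it for degradation. HIF1AN hydroxylates an asparagine of the alpha subunit and so blocks its binding to coactivators. Clear cell renal carcinomas commonly lose VHL, after which the alpha subunits escape degradation and target genes such as CA9 stay on. This regulation acts largely on the protein, which RNA levels do not show.

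Reads assigned to genes came to 29199806 in replicate 1, 26264283 in replicate 2 and 33458691 in replicate 3. Of the listed renal carcinoma markers, 9 of 10 were detected (the exception, NNMT, was listed at 0 reads), and their summed level was 1074 to 1367 RPKM. All exons of NNMT (100%) lie within other genes, and such genes were rarely detected here, as described below. Its 0 reads therefore need not mean that its RNA was absent. PAX8, at 95.7%, was detected. The 5 blood markers were all listed at 0 reads. None of 4 endothelial markers was detected, at a summed 0.0284 to 0.0721 RPKM, with KDR listed at 0 reads. Of 5 fibroblast markers COL1A1 was detected at 0.754 RPKM, and the summed level was 0.829 to 0.994 RPKM, with COL1A2 and LUM listed at 0 reads. Replicate 1 stood apart from the others in a way that moved with GC content.

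Levels are RPKM, the TMM-scaled CPM (reads scaled to library size) per kilobase of annotated exon. Whether reads in introns were counted is not stated, so RPKM values and ratios between genes may be wrongly scaled. A gene is called detected at 1 CPM or more in every library. By that rule 7 of the 10 genes were detected: EPAS1, ARNT, VHL, EGLN3, HIF1AN, CA9 and CA12. The background is 51.4% of 19861 protein-coding genes. The members' median level was 4.66 RPKM, against 0.482 RPKM over all protein-coding genes. That background includes genes not detected. Among detected genes only, the median was 5.36 RPKM for the 7 members and 6.09 RPKM for protein-coding genes, so the members were not higher. With genes lying almost wholly inside other genes left out, the medians were 5.31 RPKM for members and 1.41 RPKM for protein-coding genes. HIF1A lay near the detection limit, EGLN1 had 1 read in all, and EGLN2 was listed at 0 reads in each library.

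**Figure D1:**
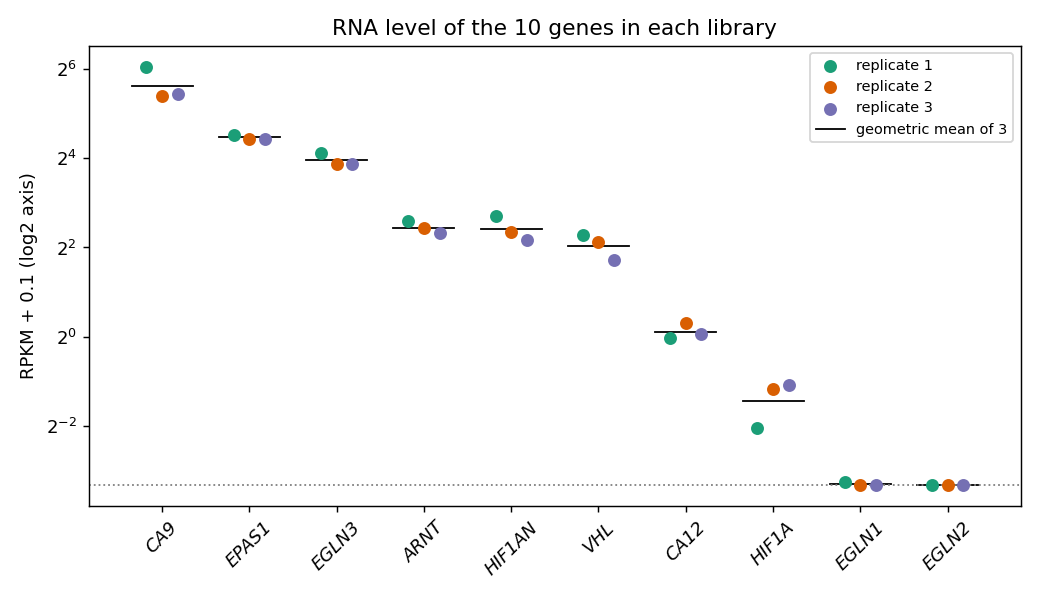
RNA level of each gene in each library (RPKM plus a pseudocount of 0.1, log2 axis), ordered by the mean on the log2 scale, with a bar at the geometric mean of the 3 libraries. CA9, EPAS1 and EGLN3 lead, HIF1A is low, and EGLN1 and EGLN2 lie at or next to the dotted line, which marks 0 reads.

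In this table, genes whose exons lie almost wholly inside the span of another gene were rarely detected. Of 3177 protein-coding genes with 80% or more of their exon length inside other genes' spans in GENCODE 29, 276 (8.69%) were detected and 2313 (72.8%) had no read in any library. Of 9483 genes with no exon base in another span, 4967 (52.4%) were detected. Partial overlap did not go with low detection: the share was 56.6% for genes with 50% to under 80% of their exons in other spans and 70.8% for those with a smaller share above 0. The share was similar where the overlap lay mostly in the other gene's introns: of 1340 genes with 80% or more of their exons inside other spans but under 10% inside other exons, 108 (8.06%) were detected. HIF1A and EGLN2 are both in the covered class. HIF1A has 92.2% of its exon length inside other spans and 5.14% inside other genes' exons, and EGLN2 has 100% and 30.6%. CA9 is covered in part, at 38.5%, and HIF1AN hardly, at 2.33%. EPAS1, ARNT, VHL, EGLN1, EGLN3 and CA12 have no exon base inside another GENCODE 29 gene.

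**Figure D2:**
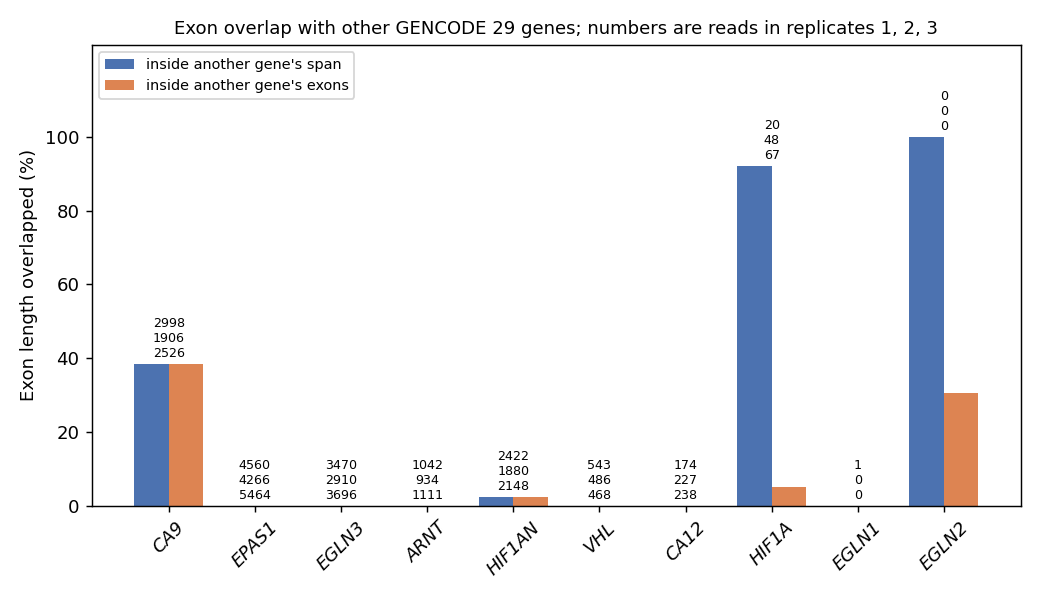
Share of each member's exon length (%) inside the span (blue) or the exons (orange) of other GENCODE 29 genes, with the reads in replicates 1, 2 and 3 printed above. HIF1A and EGLN2 stand at 92.2% and 100% by span, CA9 at 38.5%, and EGLN1 has no bar although it had 1, 0 and 0 reads.

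EPAS1 encodes HIF-2-alpha, the alpha subunit most often tied to clear cell renal carcinoma. Its gene (GRCh38, chromosome 2, 46293667 to 46386703, plus strand) had 4560, 4266 and 5464 reads in replicates 1, 2 and 3, which scale to 23.0, 21.5 and 21.5 RPKM. The mean was 22.0 ± 0.860 RPKM (SD, n = 3). It was the least variable of the detected members, with a coefficient of variation of 3.91%. After correction for the shift with GC content this no longer held. The SD of the log2 level was then 0.0959 for EPAS1 and 0.0692 for EGLN3. The EPAS1 level lay at percentile 90.0 of protein-coding genes. As a bulk value it averages over all cells, and fewer expressing cells cannot be told apart from less RNA per cell.

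HIF1A encodes HIF-1-alpha, the alpha subunit found in nearly all cell types. It lies on chromosome 14 (GRCh38, 61695513 to 61748259, plus strand) and had 20, 48 and 67 reads. Replicate 1 held fewer reads than the others although it was not the shallowest library. On the full exon length the level was 0.143, 0.343 and 0.374 RPKM. The antisense gene listed as HIF1A-AS3 (61715558 to 61751097, minus strand) spans 86.2% of the HIF1A exon length and was listed at 0 reads in each library. HIF1A-AS1 (61681041 to 61695823, minus strand) spans another 6.04%, at its 5′ end, and had 2, 4 and 14 reads. RP11-618G20.1, on the same strand as HIF1A (61734138 to 61776260), spans 64.2% and had 0, 8 and 8 reads. Over the 401 exon bases outside all of these spans, the same reads would give 3.68 ± 1.61 RPKM. The 2 lengths thus put HIF1A at 0.287 or 3.68 RPKM. Both rest on the same reads, which need not reflect the RNA, so they do not bound its level.

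By listed reads per exon length, EPAS1 exceeded HIF1A in each library. The log2 ratio of RPKM values with a pseudocount of 0.1 was 6.57, 5.61 and 5.51 (mean 5.90, SD 0.586). It passed the rule used for ratios, that the sign is the same in all libraries and the mean is over 2 SD. No test was made, since an exact sign-flip test on 3 libraries cannot go below p = 0.25. The ratio was 6.38 without a pseudocount and 2.66 with the HIF1A exon length outside other spans. The direction held but the size did not. Each setting used the same HIF1A reads, from a gene in the class rarely detected here. The order of EPAS1 and HIF1A RNA is therefore not settled.

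ARNT encodes HIF-1-beta, the constitutive partner of both alpha subunits. It lies on chromosome 1 (GRCh38, 150809705 to 150876768, minus strand), free of other genes' exons, and had 1042, 934 and 1111 reads. That gave 5.89, 5.28 and 4.90 RPKM, a mean of 5.36 ± 0.499 RPKM (SD, n = 3). EPAS1 RNA exceeded ARNT RNA 4.06-fold per exon length (log2 1.95, 2.01 and 2.11 in replicates 1, 2 and 3; SD 0.083).

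The other listed bHLH-PAS factors, relatives of the HIF subunits, were detected for 4 of 7, near the background of 51.4%. ARNT2, a paralog of ARNT that can also pair with HIF alpha subunits, was the highest at 8.92 ± 0.980 RPKM, with 2109, 1792 and 2207 reads. It exceeded ARNT by 0.72 ± 0.04 on the log2 scale, with the same sign in each library (a pair chosen after its values were seen). The clock factor ARNTL followed at 2.93 ± 0.520 RPKM and CLOCK at 0.641 ± 0.291 RPKM. HIF3A, the remaining HIF alpha gene and one named after its values were seen, had 2, 4 and 0 reads. AHR and AHRR, the dioxin receptor and its repressor, were listed at 0 reads, AHR with 99.6% of its exons in other spans and AHRR with 7.62%.

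VHL encodes the subunit that recognises hydroxylated HIF alpha. Its RNA was present in these cells, which have no functional VHL protein. The gene (GRCh38, chromosome 3, 10141008 to 10152220, plus strand) had 543, 486 and 468 reads, or 4.75, 4.25 and 3.19 RPKM. The mean was 4.06 ± 0.793 RPKM (SD, n = 3), at percentile 68.5 of protein-coding genes. Replicate 3 was the lowest, and replicate 1 the highest. A level of this kind says nothing about the sequence of the RNA or the protein made from it.

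Genes that act with VHL or on the turnover of HIF alpha were detected for 11 of 12, against the background of 51.4%. RACK1, a ribosomal scaffold protein that also binds HIF-1-alpha, was the highest at 206 ± 27.5 RPKM. Next were the elongin ELOB, an adaptor of the VHL ligase, at 44.4 ± 8.62 RPKM, with 61.1% of its exons in other spans, and the VHL-binding chaperone subunit VBP1 at 19.6 ± 8.47 RPKM. The lowest was OS9, with 95.7% of its exons in other spans and 0, 1 and 0 reads. VBP1 was far lower in replicate 1, with 538, 1339 and 1723 reads.

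Among the prolyl hydroxylases, only EGLN3 was detected. EGLN3 (PHD3) is itself a HIF target gene and lies on chromosome 14 (GRCh38, 33924231 to 34462774, minus strand). It had 3470, 2910 and 3696 reads, or 17.4, 14.6 and 14.4 RPKM, with replicate 1 the highest and replicates 2 and 3 nearly equal. The mean was 15.5 ± 1.66 RPKM (SD, n = 3), at percentile 86.2. EGLN3 lay below EPAS1 by 1.43-fold and above ARNT by 2.85-fold, and both ratios had the same sign in all libraries. Its annotated span is long and encloses SPTSSA, EGLN3-AS1 and AL356806.3, each listed at 0 reads, but none of them covers an EGLN3 exon. The RefSeq promoter of EGLN3 (33951075 to 33951324) lies well inside that span. RefSeq also lists the long noncoding RNA LOC102724945, whose span takes in 28.98% of the EGLN3 exons. Whether reads came from outside the RefSeq gene was not tested, nor was the part of LOC102724945 in the count.

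EGLN1 (PHD2) is regarded as the main oxygen sensor that acts on HIF-1-alpha. It lies on chromosome 1 (GRCh38, 231363751 to 231425044, minus strand) and had 1, 0 and 0 reads over 7265 exon bases. No GENCODE 29 gene overlaps it. RefSeq (GRCh38.p14), whose gene models need not be those the authors counted, lists a long noncoding RNA, LOC107985360 (231357290 to 231369843), whose span takes in 38.4% of the EGLN1 exon length. The deposited table also holds genes absent from GENCODE 29 in the rows on either side of EGLN1. RP5-876B10.6 had 0 reads in each library and RP5-876B10.7 had 11, 16 and 12, and their positions were not used here. This is not particular to EGLN1. Such genes also lie in rows next to EGLN3 (RP11-1078I14.1) and VHL (RP11-572M14.1), each listed at 0 reads. The part that such genes play in the EGLN1 count was not tested, so EGLN1 is given only as listed.

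EGLN2 (PHD1) was listed at 0 reads in each library. Its gene on chromosome 19 (GRCh38, 40798996 to 40808433, plus strand) lies almost wholly inside the readthrough gene RAB4B-EGLN2 (40778242 to 40808418), which spans 99.8% of its exon length and had 12, 4 and 2 reads. A further gene on the same strand, CTC-490E21.12, spans 69.6% and had 59, 70 and 75 reads. RefSeq gives the readthrough gene a span over 100% of the EGLN2 exons. With EGLN2 at 0, the planned ratios of EGLN3 and HIF1AN to EGLN2 were not formed.

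HIF1AN encodes the asparaginyl hydroxylase FIH. The gene (GRCh38, chromosome 10, 100529072 to 100559998, plus strand) had 2422, 1880 and 2148 reads, or 6.39, 4.96 and 4.43 RPKM. The mean was 5.26 ± 1.02 RPKM (SD, n = 3), and replicate 1 was the highest. Its annotated exons sum to 13950 bases, the longest of the 10 genes. Without scaling to length it stood at 73.4 ± 14.2 CPM against 34.9 ± 3.25 CPM for ARNT, whereas per exon length the pair did not differ beyond the replicate spread.

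The wider family of 2-oxoglutarate oxygenases, to which the EGLN enzymes and HIF1AN belong, was detected for 20 of 24 listed members with a median of 5.61 RPKM. The highest were the collagen-modifying enzymes: the collagen prolyl hydroxylase P4HA2 at 46.8 ± 4.16 RPKM and the lysyl hydroxylases PLOD3 at 45.6 ± 6.71 and PLOD1 at 43.4 ± 4.78 RPKM. KDM4A and OGFOD1 were the lowest, both listed at 0 reads, with 100% and 73.1% of their exons in other spans. Coactivators and their regulators were detected for 6 of 8, against the same background. CREBBP, a histone acetyltransferase that HIF recruits, stood at 9.64 ± 1.54 RPKM, NCOA3 at 7.51 ± 1.63 and the acetyltransferase EP300 at 4.74 ± 0.102 RPKM. CITED1 and CITED2 were listed at 0 reads, each with 100% of its exons in other spans.

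CA9 encodes a membrane carbonic anhydrase whose active site faces outward, a widely used marker of HIF activity and of clear cell renal carcinoma. It was the highest of the 10 genes per exon length. The gene (GRCh38, chromosome 9, 35673856 to 35681159, plus strand) had 2998, 1906 and 2526 reads, or 66.1, 42.0 and 43.5 RPKM. Replicate 1 was well above the others, which were close together. The mean was 50.5 ± 13.5 RPKM (SD, n = 3), at percentile 95.8. ARHGEF39, on the opposite strand (35658875 to 35675866), covers 643 bases of the CA9 exons and had 247, 228 and 302 reads. With the remaining 1027 exon bases CA9 would stand at 82.2 ± 22.0 RPKM.

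CA12 encodes a related membrane carbonic anhydrase that is also known as a target lost on VHL re-expression. It was detected at a low level. The gene (GRCh38, chromosome 15, 63321378 to 63382161, minus strand) had 174, 227 and 238 reads, or 0.876, 1.14 and 0.936 RPKM. The mean was 0.985 ± 0.140 RPKM (SD, n = 3), at percentile 54.4. Replicate 1 was the lowest, the reverse of CA9. No GENCODE 29 gene overlaps its exons, but RefSeq lists the long noncoding RNA LOC124903506 (63317988 to 63344410), whose span takes in 81.0% of them. Its part in the CA12 count was not tested.

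The log2 ratio of CA12 to CA9 was -6.08, -5.08 and -5.40 (mean -5.52, SD 0.512). It was -6.22 with the CA9 exon length outside ARHGEF39 and -3.51 without length scaling, and so kept its direction in these settings. No setting used a CA12 length outside LOC124903506, whose span takes in 81.0% of the CA12 exons. Other carbonic anhydrases were scarce, with 2 of 13 detected, against 51.4% of protein-coding genes, and a median of 0.0055 RPKM. The detected ones were the mitochondrial enzyme CA5B at 0.866 ± 0.167 RPKM and CA13 at 0.352 ± 0.111 RPKM. The cytosolic CA2 stood at 0.376 ± 0.050 RPKM but was not detected, at a mean of 0.798 CPM with 20, 20 and 32 reads. CA1, CA5A, CA6, CA7, CA8 and CA11 were listed at 0 reads, CA7 and CA11 with 100% and 93.8% of their exons in other spans.

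The promoters of the 3 detected members described above as HIF targets were compared for the core of the hypoxia response element. This is the short sequence that HIF dimers contact. The 250 bases before the RefSeq start (GRCh38.p14) are shown 5′ to 3′ on the gene's own strand, with matches to ACGTG or GCGTG on either strand in capitals; on the opposite strand these read CACGT and CACGC.
CA9, chr9:35673678-35673927, plus strand: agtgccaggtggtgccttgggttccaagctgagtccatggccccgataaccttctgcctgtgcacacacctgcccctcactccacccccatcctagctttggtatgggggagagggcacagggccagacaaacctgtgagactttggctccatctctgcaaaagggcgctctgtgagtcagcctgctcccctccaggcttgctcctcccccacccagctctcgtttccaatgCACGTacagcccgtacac
CA12, chr15:63381847-63382096, minus strand: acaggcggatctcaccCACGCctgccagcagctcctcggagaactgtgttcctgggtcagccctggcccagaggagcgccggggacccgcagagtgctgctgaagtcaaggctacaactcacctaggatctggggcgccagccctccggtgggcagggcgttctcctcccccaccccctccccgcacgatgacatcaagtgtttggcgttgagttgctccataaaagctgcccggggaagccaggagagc
EGLN3, chr14:33951075-33951324, minus strand: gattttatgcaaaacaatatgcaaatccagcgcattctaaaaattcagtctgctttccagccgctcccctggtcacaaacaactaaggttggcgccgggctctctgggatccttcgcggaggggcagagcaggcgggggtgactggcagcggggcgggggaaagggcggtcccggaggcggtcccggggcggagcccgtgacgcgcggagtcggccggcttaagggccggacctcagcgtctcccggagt

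CA9 has 1 match, CACGT, 18 to 14 bases before the start, and CA12 has 1 match, CACGC, 234 to 230 bases before it. EGLN3 has no match in this window. Of the 9 members with a promoter in the table, 6 had a match in at least 1 promoter: EPAS1, HIF1A, EGLN1, EGLN2, CA9 and CA12. In EGLN2 the ACGTG and CACGT matches overlap in the palindrome CACGTG. Counted by promoter, 6 of the members' 11 (54.5%) held a match. The letters are common: 43.2% of all 35116 promoters and 49.5% of 21400 promoters of protein-coding genes hold a match in the same window. Of 51 promoters of the listed HIF targets 40 (78.4%) hold one. The matches are letters in the reference, and binding was not measured.

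By level per exon length the 10 genes ran CA9, EPAS1, EGLN3, ARNT, HIF1AN, VHL, CA12, HIF1A, EGLN1 and EGLN2. Of 14 planned pairs, which were 5 by role and the neighbours in this order, 10 could be measured and 9 passed the ratio rule. The sign of a neighbour pair is fixed by the ordering itself, so for those pairs the rule shows only how the gap compares with the spread over libraries. The exception was ARNT and HIF1AN (log2 -0.12, 0.087 and 0.14), whose order is not resolved. CA9 exceeded EPAS1 2.24-fold (log2 1.16 ± 0.308), but this order depends on length, since EPAS1 had more reads than CA9 in every library. With the pseudocount of 0.1, HIF1AN exceeded VHL 1.29-fold, VHL exceeded CA12 3.81-fold, and CA12 exceeded HIF1A 2.91-fold. At the low level of HIF1A the pseudocount matters: the log2 ratio of CA12 to HIF1A was 1.54 with it and 1.89 without. The last order turned round with the exon length outside other spans, where HIF1A lay above CA12 (log2 -1.70).

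Replicate 1 was above both other libraries for 6 of the 7 detected members, the exception being CA12; 50.1% of 10201 detected protein-coding genes were above in the same way. With library totals or with GC correction the count was 5, because EPAS1 then lay below both other libraries; the background was 38.1% with library totals and 43.2% with GC correction. The excess was largest for CA9, at 1.55-fold over the average of the other libraries, followed by HIF1AN at 1.36-fold and VHL at 1.28-fold. EGLN3, ARNT and EPAS1 followed at 1.20, 1.16 and 1.07-fold. CA12 was below both others, at 0.843 of their mean, as were 42.4% of detected protein-coding genes. No detected member was 2-fold away in either direction, against 13.5% of background genes below 50% of the mean and 0.118% above 2-fold. That count leaves out HIF1A, at 0.399 of the mean of replicates 2 and 3. HIF1A failed the detection rule only through replicate 1, at 0.737 CPM, so the rule itself removed it.

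The shift of replicate 1 moved with the GC content of transcripts over all genes, from a median log2 ratio of -1.41 in the bin with a median GC content of 35.7% to 0.42 at 65.8%. CA9, with the highest GC content of the 10 genes, 60.1%, had a log2 ratio of 0.63 against a median of 0.38 for its bin, and stood above 95.7% of the 510 genes there. HIF1AN, at 46.8% GC, stood at 0.45 against 0.056, above 93.9% of its bin. VHL stood at 0.35 and ARNT at 0.21 in the same bin. EPAS1 stood at 0.097 against 0.26. CA12 stood at -0.25 against 0.21, above 8.63% of its bin. HIF1A, at 36.4% GC, was at -1.33 against a bin median of -1.41. With the bin medians removed, HIF1A was at 0.10, CA9 at 0.26, HIF1AN at 0.39 and CA12 at -0.46. Whether GC content accounts for the remaining differences was not tested. The log2 ratios of replicate 3 to replicate 2 lay between -0.41 for VHL and 0.12 for HIF1A. For VHL and CA12 (-0.29) this was further from 0 than the shift of replicate 1.

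**Figure D3:**
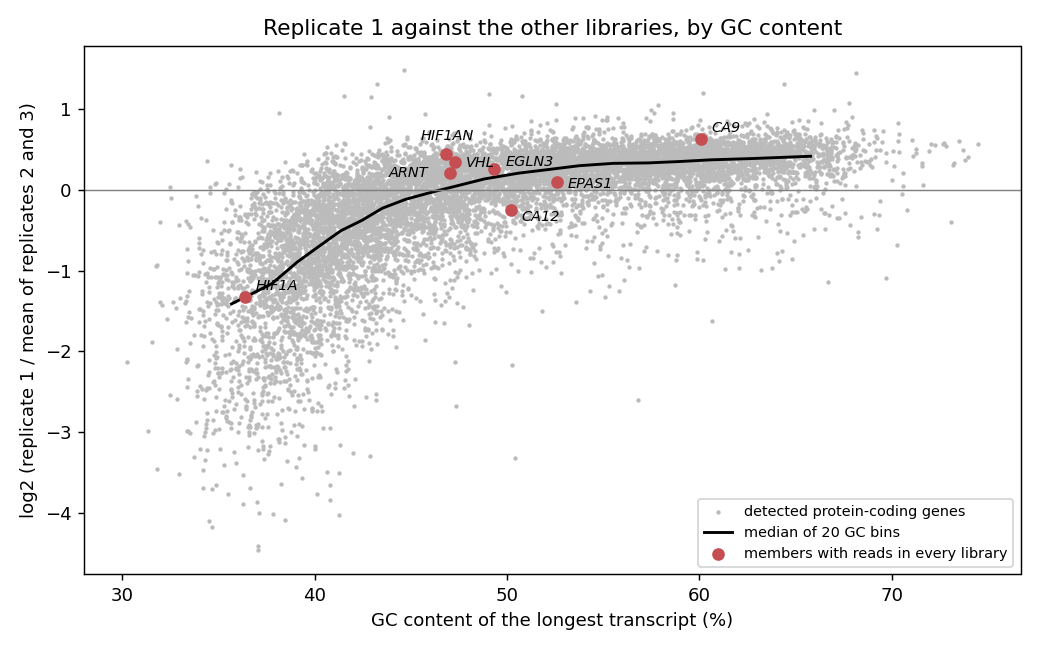
Log2 of replicate 1 over the average of the other libraries, against GC content of the longest transcript (%), for 10201 detected protein-coding genes (grey), the median of 20 GC bins (line) and the 8 members with reads in every library (red). HIF1A sits near the line at its low end, CA9 and HIF1AN lie above it and CA12 below it.

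Genes that HIF is known to activate were widely detected, 33 of 37 in the list, with a median of 32.2 RPKM. The same background of 51.4% applies. The highest were the glycolytic enzymes ENO1 at 847 ± 189, LDHA at 477 ± 36.6 and PGK1 at 425 ± 89.0 RPKM. NDUFA4L2, a mitochondrial protein and a marker of clear cell carcinoma chosen here after its value was seen, stood at 123 ± 18.1 RPKM. The lowest were HILPDA, with 100% of its exons in other spans, and the chemokine receptor CXCR4, with none, both listed at 0 reads. The remaining genes not detected, also named after their values were seen, were EPO, with 2, 0 and 0 reads, and ALDOA, with 5, 4 and 0 reads and 99.1% of its exons in other spans. The list rests on general knowledge of HIF targets, so it is a description of levels and not a measure of HIF activity.

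All 6 listed genes of acid and bicarbonate transport, which work with carbonic anhydrases on the cell surface, were detected, with a median of 18.1 RPKM. The background is 51.4% of protein-coding genes. The monocarboxylate transporter chaperone BSG stood at 247 ± 41.4, the anion exchanger SLC4A2 at 40.8 ± 7.83 and the lactate transporter SLC16A1 at 29.9 ± 2.41 RPKM. The bicarbonate transporter SLC4A7 was the lowest at 0.795 ± 0.441 RPKM, with 83, 310 and 294 reads and replicate 1 far below the others.

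**Figure D4:**
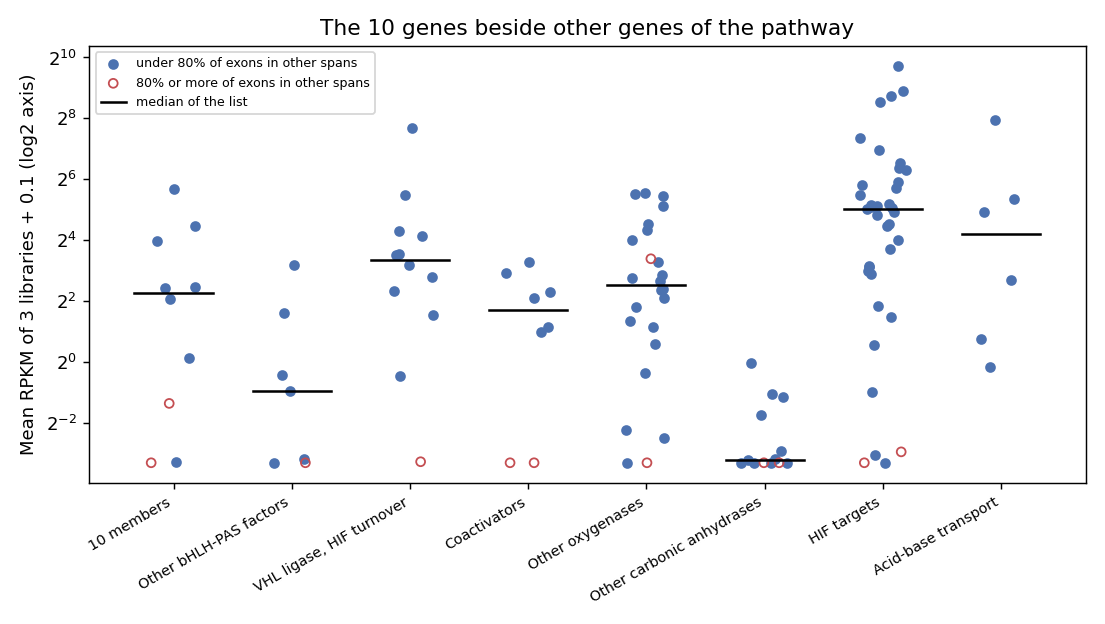
Mean RPKM of 3 libraries plus 0.1 (log2 axis) for the 10 members and the listed genes of the pathway, with a bar at each list's median. Open red circles are genes with 80% or more of their exons inside other genes' spans; apart from PLOD2 and HIF1A they lie at the bottom of the plot. HIF targets have the highest median, 32.2 RPKM, and other carbonic anhydrases the lowest, 0.0055 RPKM.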

How the data were processed

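The authors deposited 1 table with a signal per gene, which the values show to be gene counts divided by a size factor per library: 100% of nonzero values were whole multiples of 1 read, within 0.01. The recovered factors were 0.946, 0.971 and 1.24, of unstated source. The planned design expected a table of counts; recovered reads were used instead. Per the submitters' processing notes, cutadapt 1.18, HISAT2 2.1.0, featureCounts 2.0.0 and hg38 were used; the release of the annotation, the strandedness and the way reads were counted are not stated there. Genes with 2 reads outnumbered genes with 1 read (1621 against 269 in replicate 1), so reads may not be independent molecules.

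Of 60605 gene identifiers 58337 (96.3%) matched GENCODE 29, which gave exon lengths, overlaps and GC content of the longest transcript. Reads were scaled with TMM (edgeR 4.0.16, R 4.3.3) and converted to RPKM, with 0.1 added before taking log2. A single group allows no test of a condition. Ratios needed 10 or more reads for each gene in 1 or more libraries, and no gene at 0 in any. Named genes were all members, and the 3 highest and the lowest of each list; where several were tied at 0, some are named from the tie. HIF3A, NDUFA4L2, EPO, ALDOA and single marker genes were named outside this rule. Members and lists were chosen with earlier results of these data known. Genes were not ranked by likeness to the members, since 3 libraries of 1 group give no pattern over conditions. On simulated counts of 19861 genes all reads were recovered. In simulated data (10201 genes) a planted linear GC trend fell from a Spearman rho of 0.886 to 0.0102 after correction. Genes changed 2-fold there had median log2 values of 1.04 and -1.03. The simulated coefficient of variation was 0.07, whereas detected members ranged from 3.91% (EPAS1) to 26.7% (CA9) before correction. The measured trend was not linear, at -1.41 for 35.7% GC, 0.056 for 47.4% and 0.42 for 65.8%. The simulation therefore does not show how well the correction works on these data. Promoter sequences came from RefSeq (GRCh38.p14). The alternatives were DESeq2 1.42.0 size factors, library totals, other lengths, pseudocounts and detection rules, GC correction in 20 bins, and leaving out each replicate.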

Additional observations from a re-analysis of the deposited data

How the results depend on the processing

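The counts of detected members (6 to 8 of 10), of ratios past the replicate spread (9 or 10) and of listed genes detected (81 to 85) stayed within 1.5 times the reported 7, 9 and 82 under every alternative run. With 10 members and 10 measured pairs, the counts of members and ratios could not rise above that band. The listed genes were recounted only with a rule of 10 reads and with covered genes left out. Staying within the band is therefore a weak check. Without replicate 1, HIF1A was also detected. With a pseudocount of 1 the median log2 level of the detected members was 2.67 in place of 2.44. Ratios that changed sign were CA9/EPAS1 (log2 -0.96) and ARNT/HIF1AN (-1.06) without length scaling, CA12/HIF1A (-1.70) with the exon length outside other spans, and ARNT/HIF1AN without replicate 3 (-0.015). Without replicate 1, ARNT/HIF1AN passed the ratio rule at 0.12. The cause was not tested beyond the lengths themselves. The ratios without a pseudocount and the ARNT2 to ARNT pair were added after seeing the data. No paired analysis was possible because all 3 libraries belong to 1 group. Depth did not limit the 7 detected members, each with at least 174 reads per library. For HIF1A, EGLN1 and EGLN2, in contrast, the reads listed need not reflect the RNA. For CA12 the part of LOC124903506 in the count was not tested, nor was that of LOC102724945 for EGLN3.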
